A study of Mus musculus with 2 samples.

Results

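Clustered histone genes encode the replication-dependent H1, H2A, H2B, H3 and H4 proteins, and their probes were compared here between Mybbp1a knockdown and control myoblasts. They were taken as all non-control probes whose gene name on the array began with Hist1h, Hist2h, Hist3h or Hist4h. This gave 46 of 41174 distinct probes, carrying 34 gene names: 8 probes for H1, 17 for H2A, 10 for H2B, 3 for H3 and 8 for H4. All 34 names were matched to a RefSeq gene, and that of Hist3h2bb has a pseudogene symbol, H2bu1-ps. The cells were C2C12, an established mouse myoblast line derived from C3H leg muscle, grown subconfluent in growth medium with serum. One group stably expressed a short hairpin RNA against Mybbp1a and the other a control hairpin, each as a mixture of stable clones rather than 1 clone. Both of the 2 two-colour arrays carried knockdown total RNA in Cy5 and control total RNA in Cy3. Without a dye swap, dye and knockdown cannot be told apart. The arrays are labelled biological replicates, but nothing says that they came from separate infections or cultures, so p-values reflect just the spread of these samples, and this spread may be technical. Each array was on its own slide, and therefore a slide effect cannot be told apart from the replicate.

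Clustered histone genes lie in a few genomic clusters, often as divergent H2A and H2B pairs, and are transcribed mainly in S phase, when new DNA is packed into nucleosomes. H2A, H2B, H3 and H4 form the nucleosome core, and H1 binds the linker DNA. Most of their mRNAs end not in a poly(A) tail but in a conserved stem-loop, which is bound by the protein Slbp and cleaved with the help of the U7 snRNP, while Npat drives their transcription. Some of these genes also give longer, polyadenylated transcripts. Arrays of this kind are usually labelled from a primer that pairs with poly(A), so histone mRNAs without a tail can be read less efficiently than other mRNAs. Mybbp1a encodes a mainly nucleolar protein that binds Myb and other transcription factors.

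Copies of 1 histone type differ by few bases, so several probes cannot tell neighbouring genes apart, and the probes below are shown for that reason. Of the 46 probes, 13 shared an unbroken run of at least 20 bases with another of the 46. Among H2B probes, those of Hist1h2bk (chr13:22043524-22043583, plus strand), Hist1h2bm (chr13:21729735-21729794, plus strand) and Hist3h2bb (chr11:58770390-58770449, minus strand) held a common run of 26 bases, in capitals. All probe positions are on mouse build mm8, and probes are written 5′ to 3′ as deposited.
Hist1h2bk: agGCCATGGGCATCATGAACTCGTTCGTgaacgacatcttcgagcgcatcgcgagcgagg
Hist1h2bm: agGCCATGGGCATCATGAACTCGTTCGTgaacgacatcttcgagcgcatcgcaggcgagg
Hist3h2bb: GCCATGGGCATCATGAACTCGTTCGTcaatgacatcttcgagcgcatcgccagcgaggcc
Aligned without gaps, the Hist1h2bk and Hist1h2bm probes differed at 2 of 60 bases. The Hist3h2bb probe differed from them at 3 and 4 of 58 bases.

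The probes of Hist1h2af (chr13:23541396-23541455, plus strand), Hist1h2ai (chr13:21794624-21794683, minus strand) and Hist1h2ak (chr13:21761233-21761292, minus strand) read the start of the H2A coding sequence and shared another run of 26 bases, again in capitals.
Hist1h2af: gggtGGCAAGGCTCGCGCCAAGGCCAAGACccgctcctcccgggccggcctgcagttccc
Hist1h2ai: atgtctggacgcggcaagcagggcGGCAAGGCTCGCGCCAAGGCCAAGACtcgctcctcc
Hist1h2ak: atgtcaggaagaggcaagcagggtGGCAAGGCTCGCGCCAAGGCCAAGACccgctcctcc
The H4 probes of Hist1h4d (chr13:23589261-23589320, plus strand), Hist1h4f (chr13:23558845-23558904, minus strand) and Hist2h4 (chr3:96348435-96348494, minus strand) shared 29 bases, in capitals, and the first pair shared 50.
Hist1h4d: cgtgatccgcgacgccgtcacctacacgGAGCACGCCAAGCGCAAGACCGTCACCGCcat
Hist1h4f: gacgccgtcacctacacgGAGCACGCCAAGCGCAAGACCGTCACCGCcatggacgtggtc
Hist2h4: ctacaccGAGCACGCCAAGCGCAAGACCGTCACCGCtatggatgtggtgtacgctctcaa
The Hist1h2ai probe lies opposite to the RefSeq strand of that name. Values of probes in 1 such set are therefore not independent readings of separate genes, and no gene of a set can be credited with its ratio alone.

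The H1 genes shared less, and none of the 8 H1 probes had a run of 20 bases in common with another histone probe. The probes of Hist1h1a (chr13:23771484-23771543, plus strand) and Hist1h1b (chr13:21787519-21787578, minus strand) are shown because they had the lowest H1 ratios, in a sequence of their own.
Hist1h1a: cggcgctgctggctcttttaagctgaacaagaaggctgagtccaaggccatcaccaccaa
Hist1h1b: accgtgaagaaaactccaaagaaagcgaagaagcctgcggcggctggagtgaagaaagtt
The stem-loop itself was read by a few probes, shown here as short stretches with the stem-loop letters in capitals. The probe of Hist1h3a (chr13:23769352-23769411, minus strand) held all 16 letters, that of Hist1h2ab (chr13:23758988-23759047, plus strand) 11, and that of Hist1h2ae (chr13:23578085-23578144, minus strand) 12. The Hist1h2ae probe began inside the stem-loop and continued downstream of it.
Hist1h3a: accaaaGGCTCTTTTCAGAGCCaca
Hist1h2ab: aacaaaGGCTCTTTTCA
Hist1h2ae: CTTTTCAGAGCCattcac

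Mybbp1a was lower in the knockdown on both arrays. The arrays read log2 ratios of knockdown over control of -1.64 and -1.91, which average -1.78 ± 0.19 (SD, n = 2) and correspond to a 3.42-fold lower level, at a limma adjusted p of 0.137. Median spot signals were 329 (Cy5) and 159 (Cy3) on array 1, against 449 (Cy5) and 184 (Cy3) on array 2. All 8 myoblast markers looked at, among them Myod1 and Des, were measured. Of 5 adipocyte, 5 leukocyte and 5 endothelial markers, 1 (Fabp4), 3 (Cd68, Csf1r and Cd14) and 2 (Cdh5 and Tek) were measured. Cfd, Lep, Ptprc, Pecam1 and Tie1 were above background in no reading. The endothelial cadherin gene Cdh5 read 1.03 and 0.68. Its part in the histone ratios was not tested. Ratios below are log2 of knockdown over control with both arrays given, and limma was run on probes that, on each array, at least 1 colour read well above background.

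Of the 46 histone probes 41 were tested, for 32 of the 34 names. The 5 that were not tested were 1 probe each of Hist1h1d, Hist1h2ac, Hist1h2be and Hist4h4, which were above background in no reading, and 1 of Hist2h2aa2, above background on array 2 only. No histone probe passed a limma adjusted p of 0.05, and neither did any of the 27006 probes tested (0.0%). The limma adjusted p of the histone probes ran from 0.151 to 0.993. At an unadjusted p under 0.05, 6 histone probes were higher and 6 lower, 29.3% of them, against 12.7% of all tested probes higher, 9.09% lower and 21.8% in either direction. No histone probe was 2-fold higher or lower on both arrays, against 0.511% and 0.037% of all tested probes. The smallest p of an exact sign-flip test on 2 arrays is 0.5, and limma has 1 residual degree of freedom here.

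With loess the ratios of the clustered histone genes lay on both sides of 0. Ratios below 0 on both arrays were found for 13 histone probes, 31.7%, against 32.1% of all tested probes, and ratios above 0 on both arrays for another 13, 31.7%, against 37.9%. The remaining 15 had opposite signs. The median ratio over the 41 probes was -0.02, against 0.02 for all tested probes, and single probes lay between -0.71 and 1.08. A share near the background on both sides is not a result about the histone genes as a whole. By type the medians lay at 0.02 for H1, -0.07 for H2A, 0.23 for H2B, 0.06 for H3 and -0.16 for H4. Their SDs between the arrays (n = 2) were 0.26, 0.09, 0.21, 0.13 and 0.18 in this order. Probes with shared sequence counted separately in the H2A, H2B and H4 medians, and whether the types differed was not tested. With median centring in place of loess the same medians were 0.26, 0.17, 0.51, 0.57 and 0.22, with 0.19 for all tested probes, so that H2A and H4 changed sign. Median centring also called 13 histone probes higher (31.7%, against 16.1% of all) and 0 lower (against 0.448%). Among bright probes, with a mean log2 intensity of at least 14, median centring called 40.3% of all probes and 5 of the 10 histone probes. It put 4 of the 41 below 0 on both arrays and 32 above. Relative to all probes, H4 then lay close to the median and H2B and H3 above it. Over all bright probes, however, the median with median centring was 0.43. The H3 probes of Hist1h3d and Hist2h3c1 were bright, with mean log2 intensities of 16.3 and 16.8. With Feature Extraction's processed signals the medians of H1 and H3 changed sign, to -0.0448 and -0.0252.

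**Figure D1:**
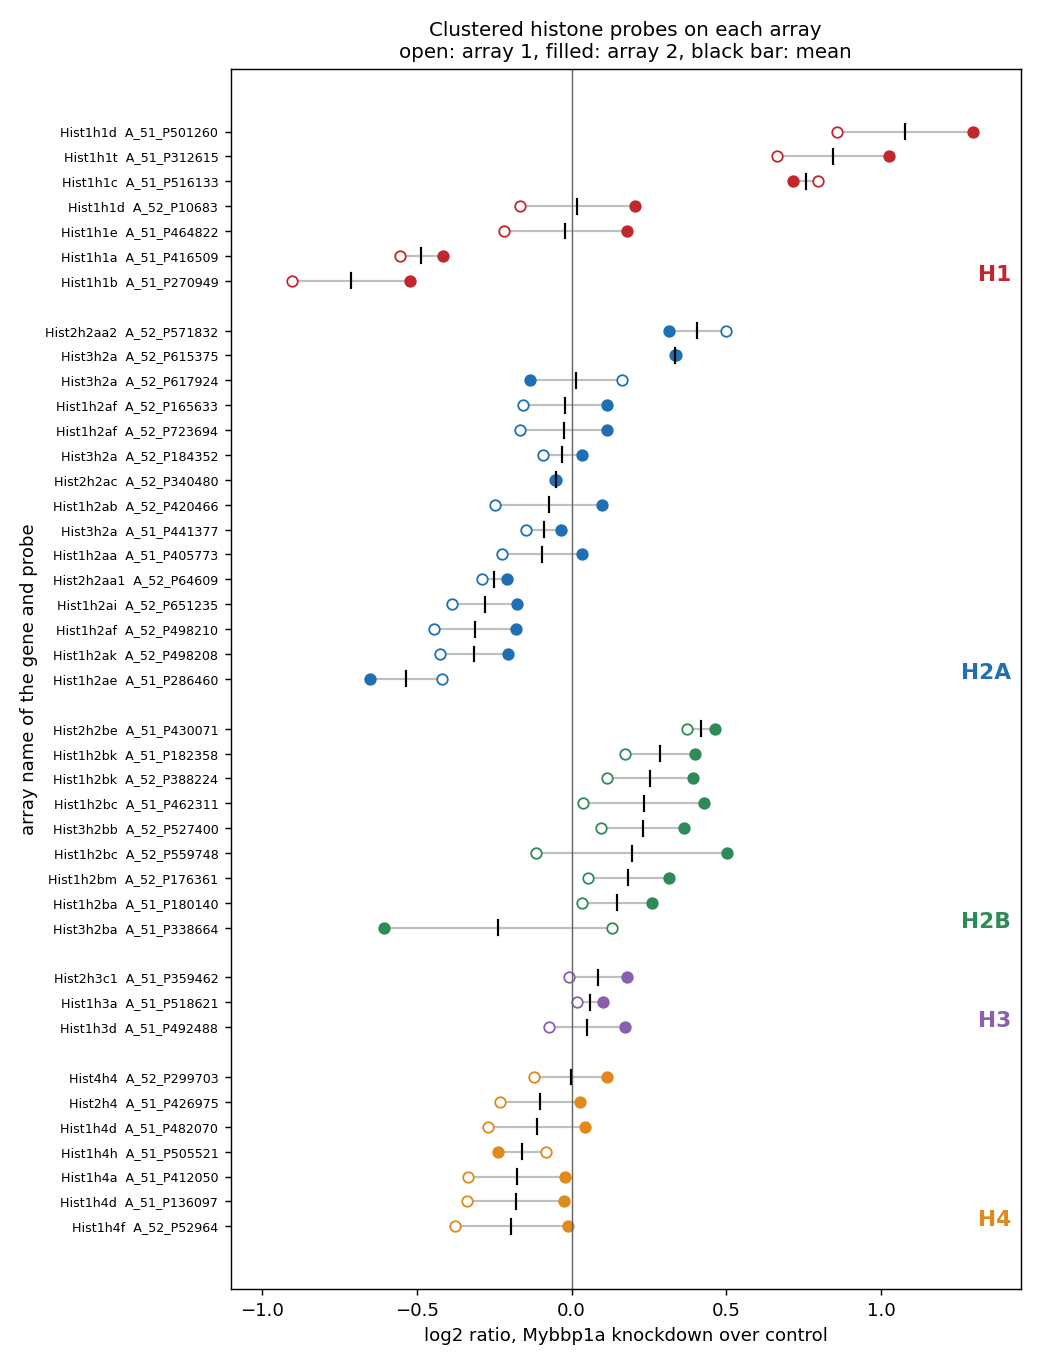
Log2 ratio of knockdown over control (horizontal axis) of each of the 41 tested histone probes (vertical axis), arranged by histone type; open points are array 1, filled points array 2 and black bars their mean. H1 probes spread from -0.71 to 1.08 in their means, while all H2B means but that of Hist3h2ba lie above 0 and the H4 means lie at or below it.

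A difference between the arrays ran through the histone probes. The ratio was higher on array 2 than on array 1 for 34 of the 41 probes, 82.9%, against 48.8% of all tested probes. Their median was -0.11 on array 1 and 0.10 on array 2, while that of all tested probes was 0.02 and 0.01. On either array alone the H2B median was above 0 (0.10 and 0.39) and the H4 median below 0 (-0.27 and -0.01). H1 went from -0.17 to 0.20, H3 from -0.01 to 0.17 and H2A from -0.17 to -0.03. For 15 of the 41 probes the sign depended on which array was read.

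**Figure D2:**
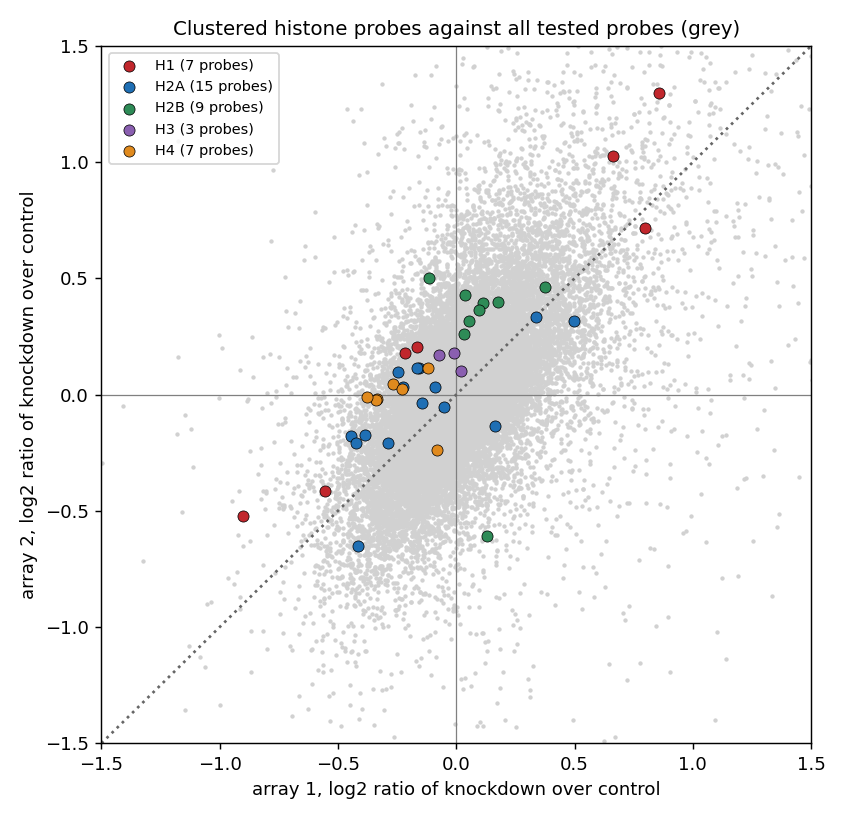
Log2 ratio on array 1 (horizontal axis) against array 2 (vertical axis) for all tested probes in grey and the histone probes in colour by type; 342 probes beyond 1.5 in either direction lie outside the axes. Of the 41 histone points, 34 lie above the diagonal of equal ratios.

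H1 genes, whose products bind linker DNA and compact chromatin, gave both the lowest and the highest ratios. Hist1h1b (H1.5) read -0.90 and -0.52, with a mean of -0.71 ± 0.27 (SD, n = 2), a limma standard error of 0.13 and adjusted p of 0.158. The background-uncorrected signals of this probe on array 1 were 20078 (Cy5) and 14644 (Cy3), against 15240 (Cy5) and 8092 (Cy3) on array 2. Hist1h1a (H1.1) read -0.56 and -0.41, also below 0 on both arrays. With median centring the means of these probes were -0.37 for Hist1h1b and -0.24 for Hist1h1a, still below 0.

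In the opposite direction, Hist1h1c (H1.2) read 0.80 and 0.72, a mean of 0.76 ± 0.06 (SD, n = 2) with a limma adjusted p of 0.151. Hist1h1t, the testis-type linker histone, read 0.66 and 1.03, with a limma adjusted p of 0.153. Both were above 0 on both arrays. With median centring they passed the threshold, at means of 1.05 and 0.91. Hist1h1e (H1.4) stood between these genes, at -0.22 and 0.18, and its arrays lay on opposite sides of 0.

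The H1 gene with the highest ratio, Hist1h1d (H1.3), was read by a pair of tested probes that did not give the same value. The probe at chr13:23564799-23564858 (plus strand) read 0.86 and 1.30, a mean of 1.08 ± 0.31 (SD, n = 2) with a limma standard error of 0.14 and adjusted p of 0.153. The probe at chr13:23563048-23563107 (plus strand), 1751 bp upstream on the gene's strand, read -0.17 and 0.20, a mean of 0.02 ± 0.26 (SD, n = 2) with an adjusted p of 0.945 in limma. The downstream probe exceeded the upstream one by 1.02 on array 1 and by 1.09 on array 2, so the gap between the probes was nearly the same on both arrays. Its G+C content was 35% and that of the upstream probe 55%. The uncorrected Cy5 and Cy3 signals of the downstream probe were 809 and 210 on array 1 and 898 and 148 on array 2. No Hist1h1d direction can be given for the gene as a whole. The remaining Hist1h1d probe, on the opposite strand, was not above background.

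The promoters of the H1 genes are shown because the ratios of these genes went apart. Some marked promoter elements are common to all 6 and others are not. The sequences are from RefSeq on GRCm38.p6 and hold the 130 bases before the annotated start, on the gene's strand. Capitals mark AAACACA, a motif known from H1 promoters, the CCAAT box and the TATA box letters TATAAA.
Hist1h1a: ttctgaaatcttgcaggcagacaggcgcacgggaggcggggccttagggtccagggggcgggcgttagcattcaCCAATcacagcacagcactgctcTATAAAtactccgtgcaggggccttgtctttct
Hist1h1b: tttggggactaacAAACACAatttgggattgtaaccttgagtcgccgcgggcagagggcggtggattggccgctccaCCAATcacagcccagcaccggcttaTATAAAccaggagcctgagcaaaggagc
Hist1h1c: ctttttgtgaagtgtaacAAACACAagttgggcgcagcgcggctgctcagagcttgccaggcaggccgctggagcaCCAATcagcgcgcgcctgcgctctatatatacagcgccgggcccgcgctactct
Hist1h1d: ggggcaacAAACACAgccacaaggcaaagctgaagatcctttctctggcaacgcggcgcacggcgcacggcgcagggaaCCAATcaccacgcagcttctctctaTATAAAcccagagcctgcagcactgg
Hist1h1e: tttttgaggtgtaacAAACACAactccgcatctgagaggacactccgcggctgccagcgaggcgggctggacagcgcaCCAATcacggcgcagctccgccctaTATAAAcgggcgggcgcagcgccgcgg
Hist1h1t: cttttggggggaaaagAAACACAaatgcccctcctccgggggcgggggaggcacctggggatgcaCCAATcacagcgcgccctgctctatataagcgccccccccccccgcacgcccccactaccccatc
Both strands were searched from 250 bases before to 50 after the start. AAACACA was found in 5 of 6 H1 promoters, beginning at -117 in Hist1h1b, -112 in Hist1h1c, -122 in Hist1h1d, -115 in Hist1h1e and -114 in Hist1h1t, and in 7.18% of all 32851 promoters. CCAAT was found in 6 of 6, against 37.4% of all, and TATAAA in 4 of 6, against 13.6%. TATAAA was in Hist1h1a, Hist1h1b, Hist1h1d and Hist1h1e, and was not found in Hist1h1c and Hist1h1t. Only these exact letters were searched for. The sequences above hold TATATATA in Hist1h1c and TATATAA in Hist1h1t, so these promoters cannot be said to lack a TATA box. Hist1h1b and Hist1h1c both held AAACACA and CCAAT, and Hist1h1a lacked AAACACA in this window. Whether any of these elements bears on the H1 ratios was not tested.

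H2A had the most probes, 17 for 11 names, and 15 were tested. Of these 7 were below 0 on both arrays and 2 above, against 32.1% and 37.9% of all tested probes. The H2A median was -0.07 and became 0.17 with median centring. The lowest was the probe of Hist1h2ae that begins inside the stem-loop, at -0.42 and -0.65, a mean of -0.53 ± 0.16 (SD, n = 2) with a limma adjusted p of 0.160. It was below 0 on both arrays and stayed below 0 with median centring, at -0.45. The highest was the probe of Hist2h2aa2 at chr3:96326470-96326529 (plus strand), at 0.50 and 0.32, a mean of 0.41 ± 0.13 (SD, n = 2) with a limma adjusted p of 0.170. RefSeq places Hist2h2aa2 on the minus strand, opposite to this probe, so the gene that it reads is uncertain. Neither array read its control signal well above background, and the difference with loess is therefore given as at least 1.33-fold higher. For the control on each array this takes the higher of its own signal and the lowest signal well above background. The value equals the fold of the mean ratio, so it is not a bound across settings. With median centring the mean was lower, at 0.18.

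The H2A probes that share the start of the coding sequence gave one pattern. Hist1h2af read -0.44 and -0.18 with the probe shown above, Hist1h2ai -0.38 and -0.18, and Hist1h2ak -0.43 and -0.21. All were below 0 on both arrays and lower on array 1, as were the readings of Hist2h2aa1, -0.29 and -0.21. In the limma fit their adjusted p was 0.225 for Hist1h2af, 0.231 for Hist1h2ai, 0.206 for Hist1h2ak and 0.224 for Hist2h2aa1. With median centring the means were 0.10, 0.05, 0.08 and 0.01, above 0.

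Further along the H2A coding sequence the ratios lay nearer 0. The probe of Hist1h2af at chr13:23541704-23541763 (plus strand) and that of Hist1h2aa at chr13:23942255-23942314 (plus strand) share 44 bases, in capitals.
Hist1h2af: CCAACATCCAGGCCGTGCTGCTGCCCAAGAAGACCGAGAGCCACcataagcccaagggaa
Hist1h2aa: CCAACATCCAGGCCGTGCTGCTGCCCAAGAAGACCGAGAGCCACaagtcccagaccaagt
They read -0.16 and 0.11 for Hist1h2af, a mean of -0.02 ± 0.19 (SD, n = 2), and -0.22 and 0.03 for Hist1h2aa. For Hist1h2af the start probe thus lay below the probe of the later coding sequence on both arrays, while both probes share sequence with other H2A genes. Another probe of that name, from an EST placed on the opposite strand, read -0.17 and 0.12. Hist2h2ac, with its probe also placed opposite to the RefSeq strand, read -0.05 on each array, and Hist1h2ab, whose probe holds part of the stem-loop, -0.25 and 0.10.

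Hist3h2a, the H2A gene of cluster 3, had 4 tested probes and only 1 of them stood off 0. The probe at chr11:58771647-58771706 (plus strand) read 0.34 and 0.33, a mean of 0.34 with an SD of 0.002 (n = 2) and a limma adjusted p of 0.175. The probe 567 bp upstream of it, at chr11:58771080-58771139 (plus strand), read -0.09 and 0.03, a mean of -0.03 ± 0.09 (SD, n = 2). In this pair the probe further downstream had the higher ratio on both arrays, and its G+C content was 35%, against 50% upstream. The downstream probe was also the higher for Hist1h1d and for the coding-sequence probes of Hist1h2af. It was the lower on both arrays for Hist1h4d (-0.34 and -0.02, against -0.27 and 0.05). The same held for Hist1h2bk, by little (0.11 and 0.393, against 0.17 and 0.398). A probe placed 17380 bp downstream of that upstream one read 0.16 and -0.14, and the probe on the opposite strand -0.15 and -0.03.

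H2B was the type with the largest share of probes above 0 on both arrays under loess. Of 9 tested probes 7 were above 0 on both arrays and 0 below on both, against 37.9% and 32.1% of all tested probes. Among those 7, the probes of Hist1h2bk, Hist1h2bm and Hist3h2bb that share the run shown above are not separate readings. The H2B median was 0.23, and 0.51 with median centring. The highest was Hist2h2be, at 0.37 and 0.46, a mean of 0.42 ± 0.06 (SD, n = 2) with a limma adjusted p of 0.164. It was above 0 on both arrays, with the arrays close together. The lowest was Hist3h2ba, at 0.13 and -0.61, a mean of -0.24 ± 0.52 (SD, n = 2) with a limma adjusted p of 0.548. Its arrays lay on opposite sides of 0 and further apart than those of any other H2B probe.

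The H2B probes with shared sequence read alike: Hist1h2bk 0.11 and 0.39, Hist1h2bm 0.05 and 0.32, and Hist3h2bb 0.10 and 0.36. These are close to 1 reading repeated, given the common bases shown above. A probe of Hist1h2bk outside this set, at chr13:22043458-22043517 (plus strand), read 0.17 and 0.40, with a limma adjusted p of 0.231, also above 0 on both arrays. A pair of probes carried the name Hist1h2bc. The one at chr13:23699815-23699874 (plus strand) read 0.04 and 0.43. The other, from a separate cDNA placed far from it at chr13:21844810-21844869 (plus strand), read -0.11 and 0.50. The gene that this other probe reads is uncertain. Hist1h2ba, which encodes the testis-type H2B, read 0.03 and 0.26. In all of these the array 2 ratio was the higher.

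H3 probes were few and near 0. Hist2h3c1 read -0.01 and 0.18, a mean of 0.09 ± 0.13 (SD, n = 2) with a limma adjusted p of 0.648. Hist1h3d read -0.07 and 0.17, and Hist1h3a, whose probe holds the whole stem-loop, 0.02 and 0.10. Only Hist1h3a was above 0 on both arrays. With median centring Hist2h3c1 and Hist1h3d read 0.64 and 0.57 and passed the threshold, while Feature Extraction's own processed signals gave -0.10 and -0.02, so no direction can be given for H3.

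H4 was the type with no probe above 0 on both arrays. Of 7 tested probes 4 were below 0 on both, against 32.1% of all tested probes, and 37.9% of all were above. The H4 median was -0.16 and became 0.22 with median centring. Hist1h4f, the lowest, read -0.38 and -0.01, a mean of -0.19 ± 0.26 (SD, n = 2) with a limma adjusted p of 0.430. The probes sharing its sequence read -0.34 and -0.02 for Hist1h4d and -0.23 and 0.03 for Hist2h4. All of these were low on array 1 and near 0 on array 2. A second Hist1h4d probe, at chr13:23589103-23589162 (plus strand), read -0.27 and 0.05, and Hist1h4a read -0.33 and -0.02. Hist1h4h, measured with an EST probe placed on the opposite strand, was the exception, with the lower reading on array 2 at -0.08 and -0.24. Hist4h4, in cluster 4, read -0.12 and 0.12, a mean of 0.00 ± 0.17 (SD, n = 2) with a limma adjusted p of 0.993.

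In base composition the histone probes were shifted to higher G+C content than the array as a whole, with overlap. Their median G+C content was 50.8%, against 40% over all probes, and 25 of 46 (54.3%) had at least 50%, against 15.4% of all. Of the 25 at or above 50%, all tested, 11 were below 0 on both arrays and 5 above, with a median of -0.09. Of the 16 tested below 50%, 2 were below 0 on both arrays and 8 above, with a median of 0.13. All 6 histone probes that were higher at an unadjusted p under 0.05 were in the group below 50%, and 5 of the 6 lower ones in the group at or above it. Among all 5224 tested probes at or above 50%, 1458 were below 0 on both arrays and 2150 above, with a median of 0.03. At an unadjusted limma p under 0.05, 604 of the 5224 were higher and 287 lower. Among all 21782 tested probes below 50%, 7220 were below 0 on both arrays and 8083 above, with a median of 0.01. At the same threshold 2828 of the 21782 were higher and 2167 lower. Removing a smooth trend of the ratio on G+C over all probes left the histone median at -0.03. Its effect on the difference between the histone probes above and below 50% was not tested. Composition, position along the gene and sharing with other copies go together in these probes and cannot be told apart.

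**Figure D3:**
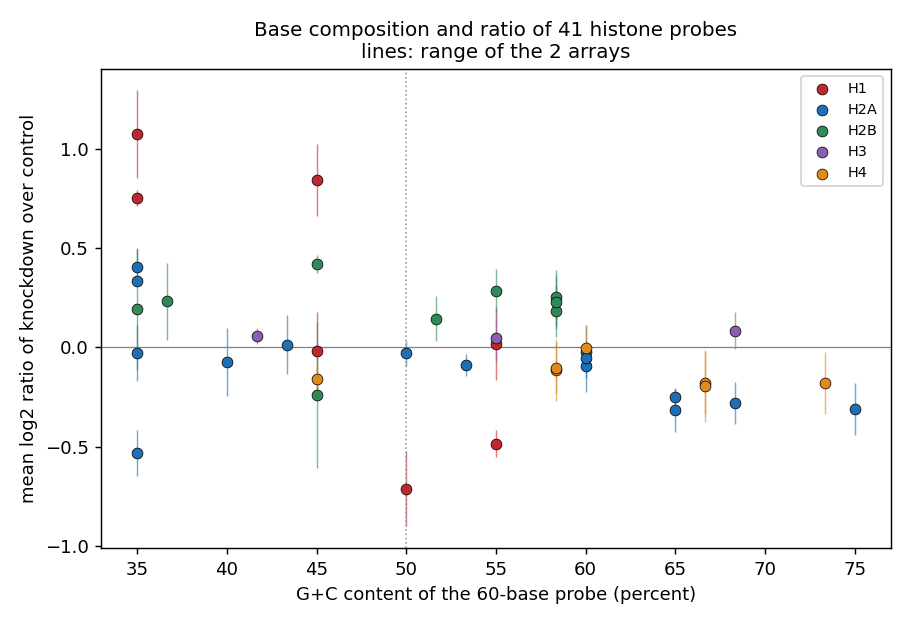
G+C content of each 60-base histone probe in percent (horizontal axis) against its mean log2 ratio of knockdown over control (vertical axis), coloured by type, with lines spanning the 2 arrays. The dotted line marks 50%: to its left lie the highest ratios, up to 1.08, and from it rightwards no mean exceeds 0.29.

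The genes that make and process histone mRNA had a median ratio of -0.19, against -0.02 for the histone probes. Of 21 genes, all tested, 12 were below 0 on both arrays (57.1%, against 32.1% of all tested probes) and 2 above. At an unadjusted p under 0.05, 0 were higher and 7 lower, against 12.7% and 9.09% of all tested probes, and none had a limma adjusted p under 0.05. Slbp, which binds the stem-loop, read -0.27 and -0.01 (limma adjusted p of 0.499). Npat, the transcriptional coactivator of these genes, read 0.03 and -0.03 (limma adjusted p of 0.987). The other tested Npat probe (A_51_P463784) read -0.16 and -0.30, below 0 on both arrays, so no direction can be given for Npat. Cpsf2, a subunit of the cleavage complex, read -0.42 and -0.62, a mean of -0.52 with a limma adjusted p of 0.159. The means of the other tested Cpsf2 probes lay nearer 0, at -0.07 (A_52_P660032) and -0.21 (A_52_P545255). Srrt (ARS2), which links the cap-binding complex to histone mRNA 3′ ends, read -0.44 and -0.55, and Lsm11, a protein of the U7 snRNP, -0.41 and -0.56. With median centring the median of the list was 0.05, against 0.19 for all probes.

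Genes of S phase, when clustered histone genes are transcribed, had a median of -0.27. Of 28 genes, all tested, 24 (85.7%, against 32.1% of all tested probes) were below 0 on both arrays and 1, E2f1, above. At an unadjusted p under 0.05, 13 were lower and 0 higher, against 9.09% and 12.7% of all tested probes, and none had a limma adjusted p under 0.05. Cyclin E2 (Ccne2) read -0.38 and -0.71, the replication licensing factor Cdt1 -0.64 and -0.42, and Orc1, of the origin recognition complex, -0.34 and -0.69. All were below 0 on both arrays. Whether the list differed from the histone probes was not tested. With median centring its median was 0.08, below the 0.19 of all probes.

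Histone chaperones, which carry new histones to DNA, had a median of -0.07 over 20 genes, with 10 below 0 on both arrays, against 32.1% of all tested probes, and 2 above. Nasp, a chaperone of H3 and H4 and a binder of H1, read -0.17 and -0.55. Hat1, which acetylates new H4, read -0.40 and -0.25, and Asf1b, a carrier of H3 and H4, -0.37 and -0.25. These 3 had the lowest ratios of the list, with means of -0.36, -0.33 and -0.31. With median centring they read 0.13, 0.02 and 0.02, with a list median of 0.28.

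Replication-independent and single-copy histone genes, whose mRNAs are mostly polyadenylated, had a median of 0.02 over 13 tested of 14 genes. Of the 13, 4 were below 0 on both arrays and 5 above, against 32.1% and 37.9% of all tested probes. H2afv, a gene of the H2A.Z variant, read 0.44 and 1.05, a mean of 0.74 with a limma adjusted p of 0.170. H3f3a and H3f3b, which both encode H3.3, read 0.38 and 0.68, and 0.11 and 0.48. All 3 were above 0 on both arrays and higher on array 2. H2afz, another gene of the H2A.Z variant, read -0.14 and -0.07, below 0 on both arrays. So were Cenpa (-0.22 and -0.32), H2afx (-0.16 and -0.28) and H2afy (-0.02 and -0.17).

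**Figure D4:**
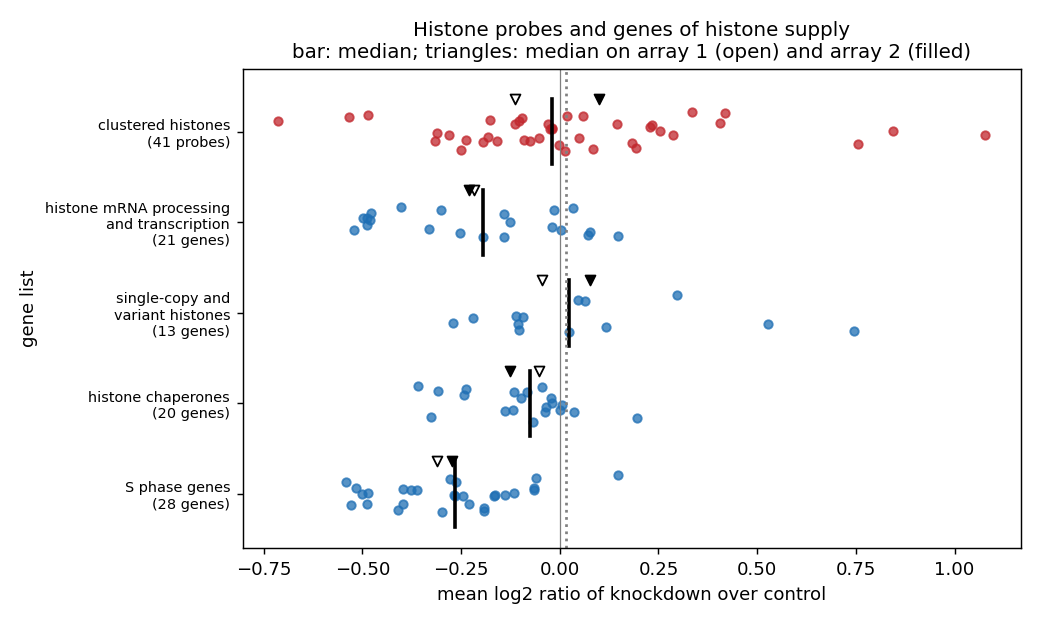
Mean log2 ratio of knockdown over control (horizontal axis) of each tested histone probe or gene, in groups (vertical axis): clustered histone probes, histone mRNA processing and transcription, variant and single-copy histones, histone chaperones and S phase genes, with a bar at each group's median, triangles at its median on array 1 (open) and array 2 (filled), and a dotted line at the median of all tested probes. The clustered histone median of -0.02 lies near that of all tested probes, and the S phase median of -0.27 is the lowest.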

How the data were processed

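Per the file headers, array images were processed in Agilent Feature Extraction 9.5.3.1. The deposited values used were spot mean and background intensity, without subtraction, in both colours, and Feature Extraction's processed intensity and log10 ratio, per the file headers. Log2 ratios for 40477 probes came with the deposited value table. Intensities were corrected with normexp (offset 50), normalized within array by loess (span 0.3, the 1639 control spots at weight 0) and averaged per probe in limma 3.58.1 under R 4.3.3. Spots with an outlier flag were left out, none of them of a histone probe, and no histone spot was saturated. Ratios were tested against 0 over 27006 probes (lmFit, eBayes, two-sided, Benjamini-Hochberg, threshold 0.05). The fit was tested on simulated data. The histone genes, the other gene lists and the alternatives were chosen with earlier results of these data known. Text names, per type, the probes with the highest and lowest ratio and the highest intensity, and genes with several tested probes. It also names Mybbp1a, Slbp, Npat and the 3 largest same-sign ratios of each other list. The remaining members and list genes named were chosen after their values were seen. In the other lists the probe of highest intensity stood for each gene.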

Additional observations from a re-analysis of the deposited data

How the results depend on the processing

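Median centring in place of loess changed most of these results. It gave 4482 calls over all probes (16.1% of tested probes higher and 0.448% lower), and 13 histone probes called, all higher (H1 3, H2A 4, H2B 4, H3 2, H4 0). It put 4 histone probes below 0 on both arrays and 32 above, with medians of 0.24 for all histone probes, 0.17 for H2A, 0.51 for H2B, 0.57 for H3, 0.22 for H4, 0.05 for mRNA processing, 0.25 for variant histones, 0.28 for chaperones and 0.0779 for S phase genes. Among bright probes, with a mean log2 intensity of at least 14, the median was 0.43 over all 2418 and 0.43 over the 10 histone probes, against -0.01 and -0.07 with loess. Median centring called 40.3% of these 2418 probes and 5 of the 10. Of 23 histone probes with a mean below 0, 18 turned positive under it, and 0 of those above 0 turned negative. Among the probes named by the rule, those that turned positive were Hist1h2af 0.58 and 0.10, Hist3h2a 0.37 and 0.17, Hist1h4d 0.22 and 0.18, Hist1h4f 0.24, Hist4h4 0.27, Slbp 0.24, Nasp 0.13, Hat1 0.0165 and Asf1b 0.0153. Feature Extraction's processed signals gave medians of -0.20 for H2A, -0.27 for mRNA processing, -0.0884 for variant histones and -0.14 for chaperones. The deposited table gave -0.27 for mRNA processing, -0.16 for chaperones and -0.34 for S phase genes. In both, Hist2h3c1 read -0.10, Hist1h3d -0.0247, the upstream Hist1h1d probe -0.0448, Npat -0.0754 and Hist4h4 0.0181. A normexp offset of 10 gave -0.22 for mRNA processing and -0.0042 for Npat, and removing the G+C trend gave -0.18 for mRNA processing. Without either array in turn, 15 to 26 histone probes were below 0 and 15 to 26 above, and medians lay between -0.23 and -0.22 for mRNA processing and between -0.31 and -0.27 for S phase genes. The cause of these shifts was not tested. With no filter on dim probes, with both channels required above background, with outlier spots kept and with 1 probe per gene name, 0 histone probes were called and the histone median lay between -0.03 and -0.02. No paired analysis was possible because each array is itself a knockdown and control pair and the ratios form 1 group.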

Other observations

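H2A pairs with H2B at divergent promoters, and the octamer motif ATTTGCAT, a binding site of the Pou2f1 family, was counted in the RefSeq promoters on GRCm38.p6. Searched on both strands from 250 bases before to 50 after the start, it was found in 6 of 11 H2A and 3 of 5 H2B promoters, in 0 of 6 H1, 0 of 2 H3 and 0 of 5 H4 promoters, and in 1.74% of all 32851 promoters. CCAAT was found in 11 of 11 H2A, 5 of 5 H2B, 2 of 2 H3 and 2 of 5 H4 promoters. Pou2f1 itself read -0.24 and -0.04, with a limma adjusted p of 0.452.

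Outside the rule for gene names, 3 probes shared 20 bases or more with a histone probe. The H2A variant gene H2afj read -0.04 and 0.14, a probe listed as MGC73635 -0.15 and -0.03, and a probe listed by an Ensembl transcript -0.12 and 0.07. None had a limma adjusted p under 0.05.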
